A study of Mus musculus with 18 samples.

Results

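Mouse chromosome 11 is described here through every peak that the 12 deposited peak lists place on it, 62564 of 712322 peaks in all, against 634165 on the other 18 autosomes. The lists come from mouse embryonic stem cells of C57BL/6 background, of which 3 genotypes are labelled Mettl3_Control (here Control), KO1 and KO2, the last 2 being knockouts of Mettl3. Each genotype has 2 H3K4me3 and 2 H3K27ac libraries (replicates r1 and r2), and 6 input samples were not analysed here. All cells grew in serum medium with LIF and the kinase inhibitors CHIR99021 and PD0325901. The labels state neither how the knockout lines were made, nor whether a line is 1 clone, nor that replicates were grown separately. The p-values therefore rest on the spread between libraries alone, which may be technical. The chromosome was selected on the background level at its H3K27ac peaks, which was high in KO1, so its H3K27ac totals are a description without a test. Every KO1 minus Control comparison of H3K27ac is a description too, and where limma calls are counted for it nothing is read from them. The KO1 background at H3K4me3 peaks was high as well, so H3K4me3 tests that use KO1 may not be free of that choice.

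Mettl3 encodes the catalytic subunit of the complex that writes N6-methyladenosine on RNA, and the series concerns what that RNA mark does to chromatin. H3K4me3 sits at the start of active and poised genes, and most CpG-rich promoters of embryonic stem cells carry it. H3K27ac marks promoters and enhancers in use, so its peaks lie both at gene starts and far from them. Chromosome 11 is one of the gene-dense mouse autosomes and holds the HoxB and Wnt3 loci, alpha globin, the type I keratins and many widely expressed genes. It carried 1609 protein-coding genes in the RefSeq table used here, 13.2 per Mb, the 2nd highest density of the 19 autosomes after chromosome 7. That was 7.79% of autosomal genes on 4.96% of the autosomal span.

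The promoters below belong to genes whose peak coverage differed between Control and a knockout line and whose RefSeq start is known, and they show how unlike such promoters were in CpG content. Each line is the 250 bases before the start, 5′ to 3′ on the gene's strand, from RefSeq (GRCm38.p6), with every CG in capitals. Tnip1 (chr11:54962941-54963190, minus strand) had 3 CG in these bases and Sparc (chr11:55420081-55420330, minus strand) had 4. Lasp1 (chr11:97799315-97799564, plus strand) had 24 and Pttg1 (chr11:43425982-43426231, minus strand) had 20. Fam222b (chr11:78115376-78115625, plus strand) had 15 and Brip1 (chr11:86201194-86201443, minus strand) had 18.
Tnip1: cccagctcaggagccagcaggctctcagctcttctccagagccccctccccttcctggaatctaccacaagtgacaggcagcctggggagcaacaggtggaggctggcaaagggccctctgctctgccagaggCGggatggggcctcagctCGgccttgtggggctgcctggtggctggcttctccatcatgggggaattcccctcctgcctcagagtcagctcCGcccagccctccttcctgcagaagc
Sparc: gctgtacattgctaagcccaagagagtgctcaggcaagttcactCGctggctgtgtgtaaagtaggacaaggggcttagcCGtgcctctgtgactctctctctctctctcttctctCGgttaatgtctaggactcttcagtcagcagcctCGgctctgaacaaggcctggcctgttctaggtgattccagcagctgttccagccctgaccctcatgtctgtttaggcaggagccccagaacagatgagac
Lasp1: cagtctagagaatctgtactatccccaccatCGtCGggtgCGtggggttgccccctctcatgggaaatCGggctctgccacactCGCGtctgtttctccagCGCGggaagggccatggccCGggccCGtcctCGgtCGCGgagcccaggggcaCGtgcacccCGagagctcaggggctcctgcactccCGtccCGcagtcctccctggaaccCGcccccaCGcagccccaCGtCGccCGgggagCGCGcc
Pttg1: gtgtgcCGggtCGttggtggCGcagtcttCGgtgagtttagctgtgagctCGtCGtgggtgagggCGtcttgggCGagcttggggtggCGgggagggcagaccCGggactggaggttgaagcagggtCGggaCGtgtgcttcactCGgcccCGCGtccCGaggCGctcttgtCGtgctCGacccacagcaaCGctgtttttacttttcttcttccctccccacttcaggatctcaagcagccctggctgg
Fam222b: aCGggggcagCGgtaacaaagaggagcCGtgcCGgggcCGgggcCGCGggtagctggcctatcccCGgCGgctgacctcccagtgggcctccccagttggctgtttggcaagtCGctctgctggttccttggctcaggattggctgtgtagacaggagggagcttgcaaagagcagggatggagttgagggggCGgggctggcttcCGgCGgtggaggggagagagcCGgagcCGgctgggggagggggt
Brip1: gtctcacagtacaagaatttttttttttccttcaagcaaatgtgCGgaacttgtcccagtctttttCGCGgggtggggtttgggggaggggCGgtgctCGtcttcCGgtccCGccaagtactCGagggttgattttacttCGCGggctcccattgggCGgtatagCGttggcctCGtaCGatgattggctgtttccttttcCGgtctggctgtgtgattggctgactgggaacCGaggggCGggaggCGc
The first 3 gained H3K27ac in KO2, Pttg1 gained H3K4me3, and Fam222b and Brip1 lost H3K4me3, as described with their values further on.

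Over 1271 chromosome 11 promoters with a RefSeq start, the median was 13 CG and 57.6% G+C in these 250 bases, against 10 CG and 56% over 15186 promoters of the other autosomes (chromosome 18 was not used here). The letters GGGCGG, on either strand, stood in 48.9% of chromosome 11 promoters and 43.8% of the others. TATAAA stood in 12.5% against 12.4%, and CCAAT in 36.5% against 35.9%. Within 2 kb of the start, 40.0% of chromosome 11 promoters met a peak of both marks in all 12 libraries, against 31.9% elsewhere, and 26.4% met no peak in any library, against 32.7%. The promoters without any peak had a median of 2 CG and held TATAAA in 30.1% of cases, whereas those with both marks throughout had 18 CG and TATAAA in 5.30%. These are descriptions of letters and peaks, and no test was run on them.

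Read depth is unknown for these lists. H3K4me3 lists held 66483 to 83644 peaks and H3K27ac lists 29973 to 65398, the H3K27ac lists of KO2 being the longest. Of 7 stem cell marker genes, 6 had H3K27ac at the start in all 6 H3K27ac libraries (Pou5f1 and Nanog among them), and Esrrb had none in its RefSeq start window. Of 6 fibroblast markers, which would show feeder cells, none had H3K27ac in all libraries. Col1a1, Col1a2, Thy1 and Postn were at 0 in every one, Twist1 reached 4.67% and Vim 46.0% coverage. For H3K4me3, 2 of the 6 had a peak in all 6 libraries (Twist1 at 25.5% to 45.4% and Vim at 51.3% to 74.9%), Thy1 in 5, Col1a1 in 4, Col1a2 in 1 and Postn in none. The part of such cells in the results was not tested.

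Chromosome 11 held more peaks than any other autosome for each mark and genotype. For H3K4me3, Control had 6851 and 6622 peaks on it, KO1 6174 and 6036, and KO2 6460 and 5983. Both knockout lines lay below both Control libraries in number. As a share of autosomal peaks the order turned: 8.36% and 8.28% in Control, 9.04% and 8.93% in KO1, then 9.15% and 9.21% in KO2. All 4 knockout libraries lay above both Control libraries. So the lists grew shorter in the knockouts, and chromosome 11 lost less of its peaks than most autosomes did. Its peak number in KO1 was 0.906 of Control, the highest of 19 autosomes, whose others ranged from 0.720 (chromosome 8) to 0.895 (chromosome 16).

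The share was tested with limma on log2 of chromosome 11 peaks over peaks of the other autosomes. It was higher by 0.12 ± 0.012 (SE) in KO1 (adjusted p = 3.65e-06) and by 0.16 ± 0.012 in KO2 (adjusted p = 1.56e-07). Such calls were common: 36.8% of autosomes were called higher in KO1 and 47.4% in KO2, while 15.8% and 47.4% were called lower, and shares of one whole are not independent. Chromosome 11 ranked 1st of 19 in KO1 and 3rd in KO2. In the mean of both lines the peak share differed by 0.14 ± 0.011 (adjusted p = 2.39e-07, with 47.4% of autosomes called higher and 42.1% lower). KO2 differed from KO1 by 0.03 ± 0.012 (adjusted p = 0.0175, with 52.6% called higher and 36.8% lower). An exact two-sided permutation test over the libraries gave p = 0.0667 for the 4 knockout against the 2 Control libraries, the smallest p that 15 assignments allow. Both knockout comparisons share the Control libraries. The tests that use KO1 may not be free of the choice of the chromosome, which was made on the KO1 background.

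Covered length told the same for H3K4me3. Peaks covered 4.99 and 4.84 Mb of chromosome 11 in Control, 4.46 and 4.28 Mb in KO1, then 4.69 and 3.89 Mb in KO2. That was 8.73% and 8.75% of the covered autosomal length in Control, 9.80% and 9.67% in KO1, then 9.59% and 9.53% in KO2, with no overlap between knockout and Control libraries. On the log2 scale of chromosome 11 over the other autosomes the covered share was higher by 0.17 ± 0.010 (SE) in KO1 and by 0.14 ± 0.010 in KO2, with limma adjusted p-values of 1.10e-22 and 2.03e-19. For this measure limma gave every autosome 1 common spread, which is why 6 libraries reach such p-values, and the exact permutation p was again 0.0667. Of the 19 autosomes 57.9% were called higher in KO1 and 47.4% in KO2, and 26.3% and 47.4% were called lower. The mean of both lines differed by 0.16 ± 0.0090 (adjusted p = 9.69e-24, 42.1% of autosomes called higher and 42.1% lower). KO2 minus KO1 was -0.03 ± 0.010 (adjusted p = 0.00845, 52.6% higher and 42.1% lower). The caution on the choice of the chromosome holds for this measure too.

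H3K27ac peaks on chromosome 11 numbered 2565 and 2851 in Control, 3771 and 3687 in KO1, then 6017 and 5547 in KO2. The 3 genotypes did not overlap, and the mean was 1.38 times Control in KO1 and 2.14 times in KO2. Covered length went from 1.25 and 1.28 Mb in Control to 1.90 and 1.71 Mb in KO1 and 3.54 and 3.34 Mb in KO2. The share of autosomal H3K27ac peaks was 8.70% and 8.79% in Control, 9.58% and 9.64% in KO1, then 9.41% and 9.25% in KO2. The covered share was 8.82% and 8.88%, then 9.90% and 9.97%, then 9.75% and 9.62%. In covered share chromosome 11 stood 1st of 19 autosomes in KO1 over Control, at 1.12, with the others from 0.775 (chromosome 8) to 1.10 (chromosome 16). In KO2 it stood 5th, at 1.09, below chromosome 7 at 1.19.

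**Figure D1:**
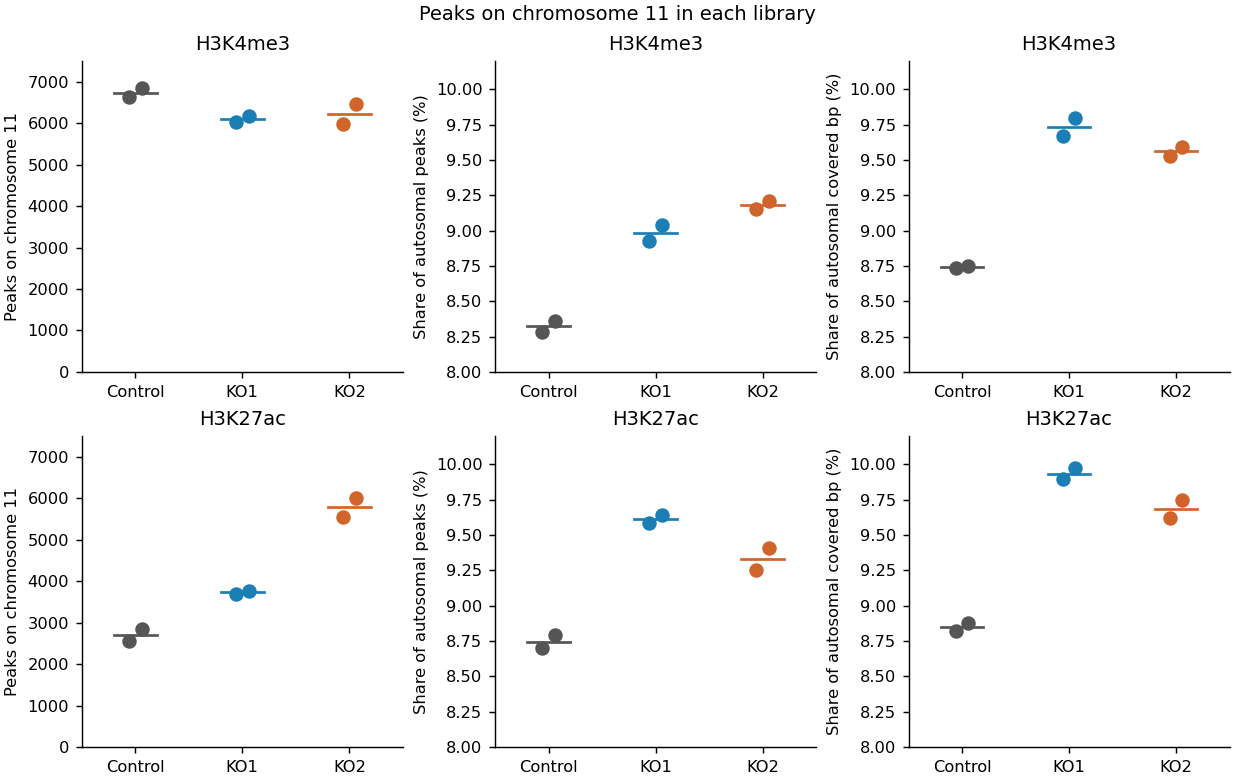
Peaks on chromosome 11 (left), its share of autosomal peaks (middle, %) and its share of the autosomal length covered by peaks (right, %) for H3K4me3 (top) and H3K27ac (bottom). Each point is 1 library and each line the mean of 2; H3K4me3 peaks were fewer in the knockouts and H3K27ac peaks more, while both shares lay above Control in all 4 knockout libraries of each mark. The axes of the shares start at 8%.

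Median peak width differed little between genotypes, while wide H3K27ac peaks were more common in KO2. The median width of H3K4me3 peaks on chromosome 11 was 374 ± 0.707 bp in Control, 378 ± 1.41 bp in KO1 and 389 ± 20.5 bp in KO2 (SD, n = 2 each). For H3K27ac it was 334 ± 19.8, 345 ± 14.8 and 372 ± 9.90 bp. H3K27ac peaks over 2 kb made up 1.29% and 1.09% of those on the chromosome in Control. They made up 1.80% and 1.25% in KO1, then 3.72% and 3.59% in KO2. The other autosomes, without chromosome 18, went from 1.29% and 0.966% in Control to 3.06% and 3.12% in KO2. The median of the authors' fold enrichment of H3K27ac peaks, each list's own value, was 5.52 ± 0.143 in Control, 5.44 ± 0.198 in KO1 and 5.52 ± 0.128 in KO2. For H3K4me3 it was 5.28 ± 0.096, 5.34 ± 0.056 and 5.83 ± 0.124, highest in KO2. The overlap of the marks moved further. Of H3K4me3 peaks on the chromosome, 32.0% and 32.9% met an H3K27ac peak of either library of the same genotype in Control, 46.2% and 46.7% in KO1, then 66.8% and 70.2% in KO2. The other autosomes, without chromosome 18, gave 30.8% and 31.4%, then 45.0% in both, then 66.2% and 69.2%, so the genome as a whole did the same.

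The background that the peak caller set for each peak was recovered from the authors' fold enrichment and p. These leave several candidate pairs of pileup and background per peak. The pair whose pileup lay nearest a whole multiple of a scale fitted to each library was taken, so the values rest on that assumption. The relative background is the mean over peaks of chromosome 11 divided by the mean over peaks of the other autosomes, so that 1 means no difference. At H3K4me3 peaks it was 1.03 in both Control libraries, 1.21 and 1.2 in KO1, then 1.09 and 1.08 in KO2. At H3K27ac peaks, whose KO1 value chose the chromosome, it was 1.01 and 1.02, then 1.2 and 1.19, then 1.08 in both. In KO1 chromosome 11 had the highest relative background of the 19 autosomes for both marks. The next in KO1 was chromosome 18, at 1.14 for each mark, and in KO2 chromosome 6 stood above it, at 1.21 for H3K4me3 and 1.24 for H3K27ac. Other autosomes differed from Control too: at H3K4me3 peaks of KO1, chromosome 8 stood at 0.766 of its Control value and chromosome 11 at 1.17. The labels do not say whether the H3K4me3 and H3K27ac lists were called against the same control library, so their backgrounds may not be independent. The number of chromosome copies in each line was not tested, nor was the part of this background in the shares above.

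**Figure D2:**
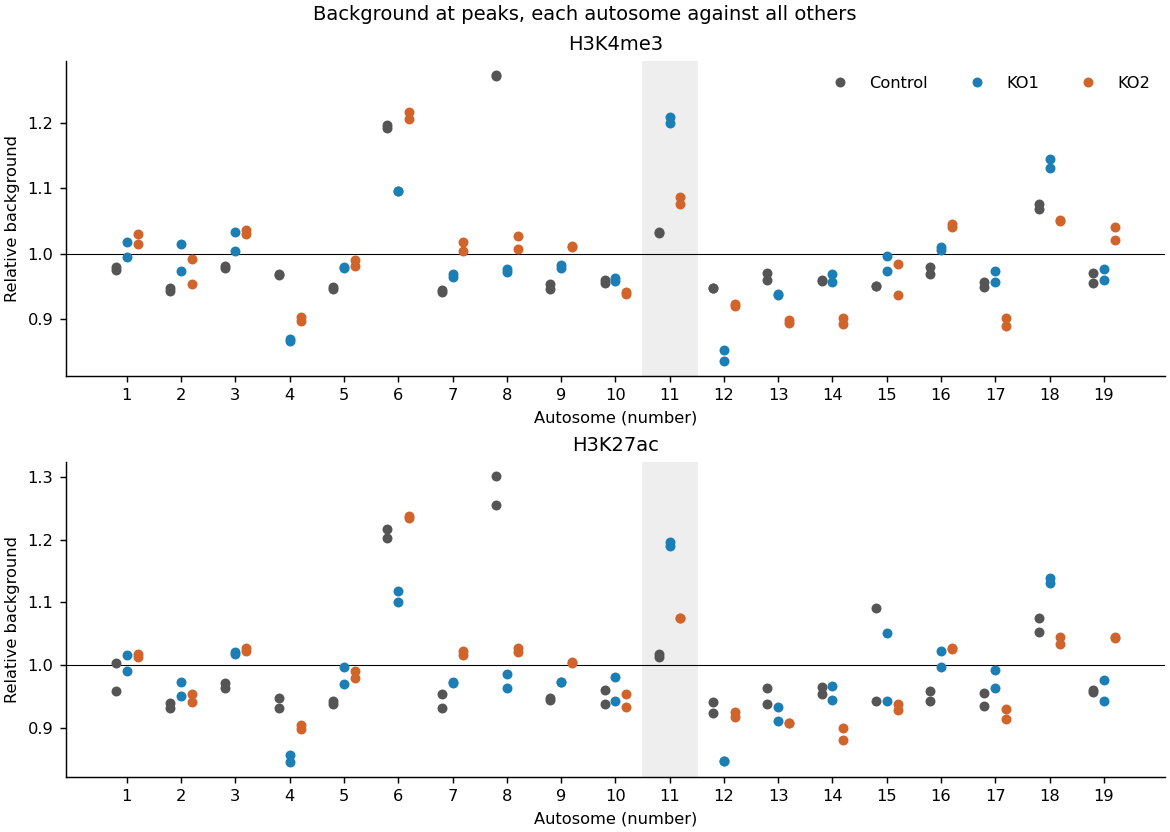
Relative background (y axis, ratio without unit) at H3K4me3 (top) and H3K27ac (bottom) peaks of each autosome (x axis) against all other autosomes, 1 point per library, with chromosome 11 shaded. On chromosome 11 the 2 KO1 libraries of each mark lie at 1.19 to 1.21, the KO2 libraries at 1.08 to 1.09 and the Control libraries at 1.01 to 1.03.

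The higher background of KO1, which at H3K27ac peaks chose the chromosome, was present along the whole chromosome. Segments of other autosomes were not computed, so the counts of segments are a description without a share to set beside them. Split into 13 segments of 10 Mb, counted from the low-numbered end, both KO1 libraries lay above both Control libraries in 13 of 13 segments for each mark. The difference of the means was 0.118 to 0.221 for H3K4me3 and 0.116 to 0.244 for H3K27ac. In KO2 both libraries lay above both Control libraries in 11 of 13 segments for each mark, with median differences of 0.047 and 0.063. The 9th segment, from 80 to 90 Mb, had the highest KO1 values, 1.29 for H3K4me3 and 1.34 for H3K27ac.

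**Figure D3:**
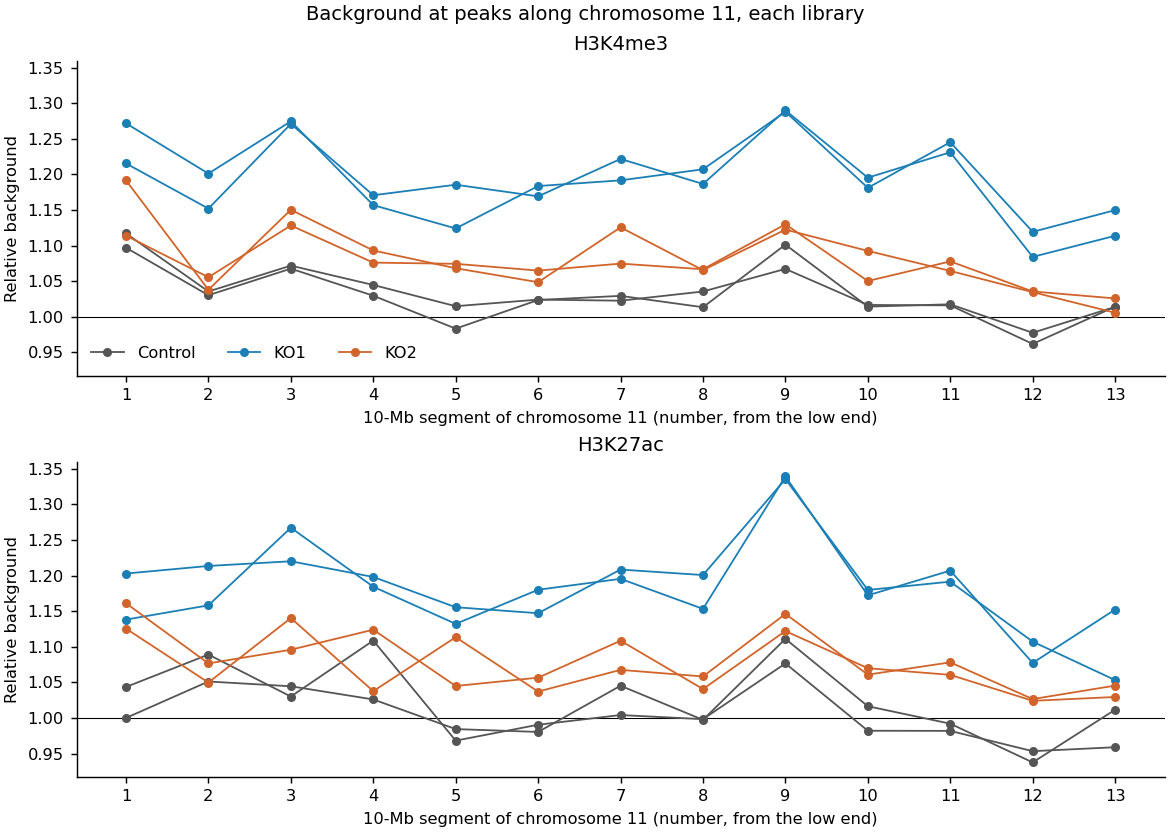
Relative background (y axis, ratio without unit) at peaks in 13 consecutive 10-Mb segments of chromosome 11 (x axis), 1 line per library, for H3K4me3 (top) and H3K27ac (bottom). The KO1 lines lie above both Control lines in every segment, and the KO2 lines in 11 of 13 segments for each mark.

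Where H3K27ac peaks lay along the chromosome shifted in KO2. The lower quartile of peak positions was at 33.5 Mb in both Control libraries, at 36.0 Mb in both KO1 libraries and at 51.6 Mb in both KO2 libraries. The median position was 73.2 and 73.0 Mb in Control, 73.1 and 74.6 Mb in KO1, then 77.2 and 77.3 Mb in KO2. H3K4me3 peaks kept a median of 76.3 to 77.3 Mb in all 6 libraries. Thus the H3K27ac peaks of KO2 were spread along the chromosome much as H3K4me3 peaks are. Positions were computed neither for other autosomes nor at equal list lengths, and the KO2 lists of H3K27ac were the longest. Whether the shift is particular to chromosome 11, or goes with list length, was not tested.

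In segments of H3K27ac, both KO2 libraries had a lower share than both Control libraries from 0 to 40, 60 to 70 and 120 to 130 Mb. They had a higher one from 40 to 60, 70 to 80, 90 to 100 and 110 to 120 Mb, and overlapped Control from 80 to 90 and 100 to 110 Mb. Of the H3K27ac length covered on chromosome 11, the segment from 20 to 30 Mb held 10.5% ± 0.087 in Control, 9.73% ± 0.058 in KO1 and 7.19% ± 0.086 in KO2 (SD, n = 2 each). The segment from 10 to 20 Mb held 5.17% ± 0.228, 4.29% ± 0.121 and 3.53% ± 0.047. On the other side, the segment from 110 to 120 Mb held 5.44% ± 0.081 in Control, 6.12% ± 0.185 in KO1 and 8.86% ± 0.087 in KO2. The segment from 50 to 60 Mb, which holds Sparc and Tnip1, went from 7.16% ± 0.029 to 8.86% ± 0.211 and 9.16% ± 0.073. In none of these 4 segments did a KO2 library overlap a Control library. These shares too were computed neither for segments of other autosomes nor at equal list lengths. H3K4me3 shares moved less: 8.93% ± 0.066, 9.85% ± 0.026 and 9.84% ± 0.149 from 50 to 60 Mb, and 3.65% ± 0.022, 2.97% ± 0.138 and 3.04% ± 0.229 from 10 to 20 Mb.

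**Figure D4:**
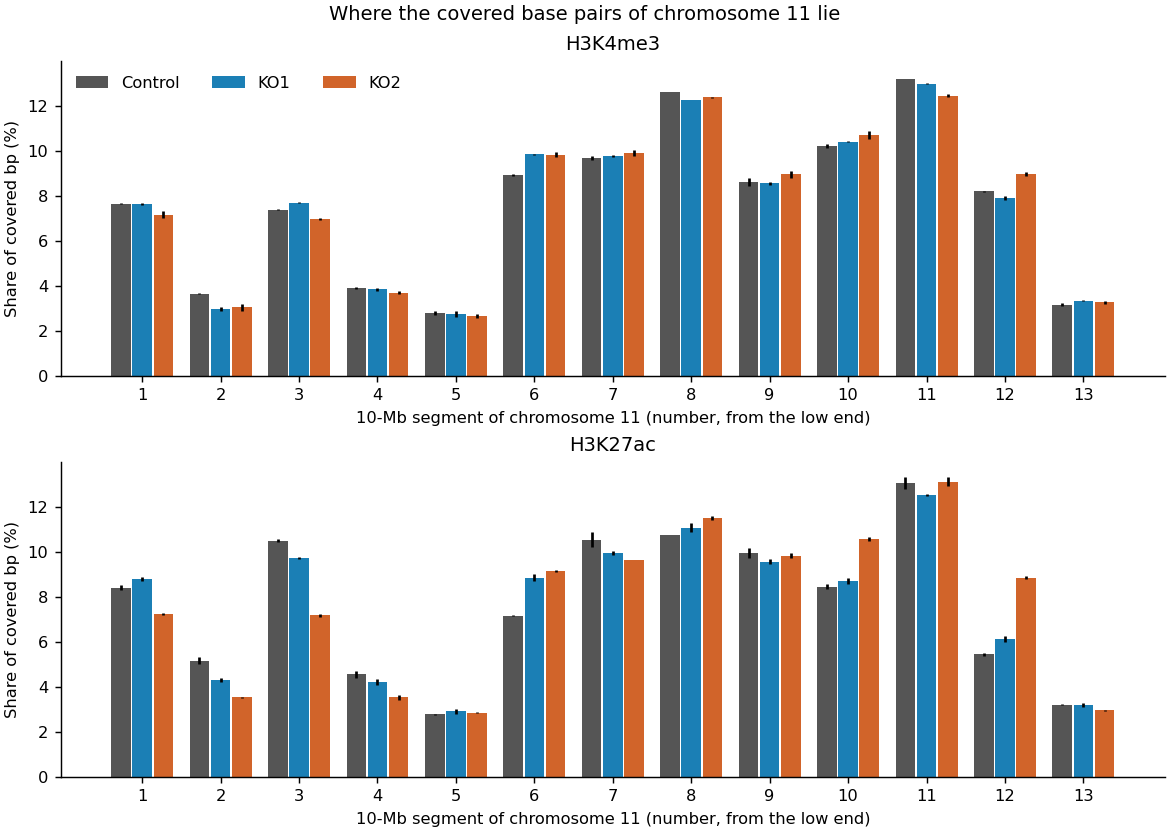
Share of the chromosome 11 length covered by H3K4me3 (top) or H3K27ac (bottom) peaks that lies in each 10-Mb segment (y axis, %; x axis, segment number from the low end). Bars are means of 2 libraries and black lines join the 2 libraries; H3K27ac of KO2 is lower in segments 2 and 3 and higher in segments 6, 10 and 12.

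Bins of 1 Mb placed these shifts more finely. The covered length of each bin, as log2(bp + 1000) centred on the median bin of its library, was tested with limma over all autosomal bins. For H3K4me3, 65 of 103 chromosome 11 bins were higher in KO1 and 4 lower, against 34.7% and 16.2% called in those directions over all bins. In KO2, 58 were higher and 11 lower, against 38% and 23.6%. In the mean of both lines the counts were 71 and 6, against 40.2% and 21.1%, and for KO2 minus KO1 they were 17 and 30, against 20.9% and 22.4%. These directions are relative to the median bin: without centring, 3 bins were higher and 15 lower in KO1, then 9 higher and 28 lower in KO2. The shares of all bins called without centring are not given here, so only the medians are compared. The median of all bins was then -0.25 in KO1 and -0.26 in KO2, and that of chromosome 11 bins was -0.13 and -0.18. The chromosome thus lost covered H3K4me3, but less than the median of all bins did.

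For H3K27ac, 50 of 97 bins were higher in KO2 and 29 lower, against 30.9% and 35.1% of all bins. Without centring, the 90 bins called were all higher, the median of all bins being 1.14 and that of chromosome 11 bins 1.40 on the log2 scale. The share of all bins called in that setting is not given here. In KO1, 44 bins were higher and 7 lower, beside 19% and 18.1% of all bins, and nothing is read from that count. The mean of both lines, which holds the same KO1 libraries, gave 51 and 20 beside 27.9% and 29.6%. For KO2 minus KO1, 26 bins were higher and 33 lower, against 25.6% and 31.8%.

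The largest H3K4me3 fall lay from 12 to 13 Mb, a bin with Grb10, an imprinted gene for a growth-restraining adaptor protein, and Cobl, an actin nucleator gene. Peaks covered 41.9 and 41.2 kb of it in Control, 20.5 and 22 kb in KO1, then 25.2 and 19.6 kb in KO2. Every knockout library was far below both Control libraries. The centred log2 difference was -0.59 ± 0.064 (SE) in KO1 (limma adjusted p = 1.78e-08) and -0.53 ± 0.064 in KO2 (adjusted p = 5.36e-08). The 4-kb promoter windows did not carry that fall: Cobl stayed at 93.5% to 100% coverage in all 6 libraries, and the Grb10 window held 4.27% and 0% in Control and 8.45% to 15.2% in the knockouts, a difference that did not pass (adjusted p = 0.0627 for the mean of both lines). The bins from 17 to 18 Mb and 19 to 20 Mb, the latter with Meis1 and Spred2, fell in the mean of both lines by 0.29 and 0.25 (adjusted p = 2.93e-04 and 2.17e-04).

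H3K4me3 rose most in the bins from 57, 110 and 114 Mb. From 57 to 58 Mb, a bin with Hand1, Gria1 and Larp1 among 7 genes, peaks covered 17.8 and 18.4 kb in Control, 26.9 and 24.8 kb in KO1, then 25.1 and 21.4 kb in KO2. All 4 knockout libraries were higher, and the mean of both lines differed by 0.76 ± 0.059 (limma adjusted p = 1.69e-11). From 114 to 115 Mb, with Sdk2, Rpl38 and the Cd300 genes among 13, the covered length was 12.5 and 11.9 kb in Control, 13.9 and 13.8 kb in KO1, then 22.1 and 19.8 kb in KO2. From 110 to 111 Mb, a bin of Abca transporter genes, it was 3.60 and 3.39 kb, then 5.58 and 3.47 kb, then 7.59 and 4.84 kb, where 1 KO1 library lay between the Control libraries.

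For H3K27ac the largest centred rises in KO2 lay in the bins from 114, 35 and 55 Mb, of which only the first is among the 3 H3K4me3 bins above. The bin from 35 Mb did not pass for H3K4me3 in KO2 (0.17 ± 0.078, limma adjusted p = 0.0619). The bin from 55 Mb did pass for H3K4me3 in KO2 (0.65 ± 0.050, limma adjusted p = 1.09e-11), beside 38% of all bins called higher. From 114 to 115 Mb H3K27ac covered 2.59 and 1.96 kb in Control, 6.63 and 5.26 kb in KO1, then 23.4 and 20.3 kb in KO2. The centred difference there was 1.63 ± 0.122 in KO2 (limma adjusted p = 1.60e-09). From 35 to 36 Mb, with the axon guidance gene Slit3, it covered 1.37 and 2.07 kb, then 4.84 and 3.85 kb, then 16.2 and 12.6 kb (difference in KO2 1.33 ± 0.144, adjusted p = 1.33e-07). From 55 to 56 Mb, with Sparc and G3bp1 among 11 genes, it covered 8.79 and 7.75 kb, then 21.5 and 18.7 kb, then 49.9 and 44.4 kb (difference in KO2 1.2 ± 0.076, adjusted p = 2.26e-10). In each of these 3 bins the 3 genotypes kept apart, but the bins were picked for the largest called rise in KO2.

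The largest centred H3K27ac falls in KO2 were in gene-poor bins. From 13 to 14 Mb, without a protein-coding gene, H3K27ac covered 6.63 and 5.42 kb in Control and 5.71 and 5.35 kb in KO2. From 14 to 15 Mb it covered 3.22 and 4.12 kb in Control and 3.22 and 2.82 kb in KO2. From 27 to 28 Mb, also without such a gene, it was 2.39 and 2.37 kb against 2.51 and 2.95 kb. The lengths hardly moved there while most bins gained, and the centred differences in KO2 were -1.28, -1.39 and -1.04.

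Peaks were also compared as regions found in both libraries of a genotype, counted as absent elsewhere when neither library had a peak. Of 4104 H3K4me3 regions of Control on chromosome 11, 11.8% were absent in KO1, the lowest value of the 19 autosomes, and 14.8% in KO2. The other autosomes together gave 16.1% and 19.5%. Of H3K4me3 regions of KO1 and KO2, 6.44% and 10.8% were absent in Control, against 5.48% and 9.60% elsewhere. Of 1845 H3K27ac regions of Control, 2.49% were absent in KO1 and 1.08% in KO2, against 3.74% and 2.03% elsewhere. In the reverse direction 19% of 2465 KO1 regions and 47.0% of 3872 KO2 regions of H3K27ac were absent in Control, against 15.0% and 43.3% elsewhere. Regions are not replicates of a genotype, and no test was run.

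All libraries of a mark together gave 8629 H3K4me3 and 7048 H3K27ac regions on chromosome 11, of which 27.8% and 18.9% met a peak in all 6 libraries. Regions in all 4 knockout libraries and no Control library numbered 89 for H3K4me3 and 316 for H3K27ac. The reverse, both Control libraries and no knockout, held for 305 H3K4me3 and 7 H3K27ac regions. The first kind asks for 4 libraries and the second for 2, so their counts are not matched. As a share of all regions of a mark, the knockout-only ones were 1.03% for H3K4me3 and 4.48% for H3K27ac, against medians of 0.828% and 3.45% over the other autosomes. Those of Control alone were 3.53% and 0.0993%, against 4.93% and 0.160%. These classes over all 6 libraries were not recounted at equal list lengths. In the comparison of each line with Control, the H3K4me3 direction depended on list length. With all peaks, 486 Control regions were absent in KO1 against 246 KO1 regions absent in Control, and for KO2 the counts were 609 and 432. With equal numbers of peaks per list, 244 Control regions were absent in KO1 against 335 KO1 regions absent in Control, and for KO2 the counts were 345 and 529.

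The widest H3K4me3 regions of Control were broad domains that overlapped genes. Regions of Control were drawn from the peaks of its own libraries, so high Control coverage is built in. Lower coverage in the knockouts is therefore not read as a loss. The one at G3bp1, a stress granule protein gene, spanned 21456 bp (chr11:55469682-55491137 in mm10). Peaks covered 99.0% and 98.4% of it in Control, 85.5% and 83.2% in KO1, then 88.4% and 77.4% in KO2. Domains at Vps54 (20264 bp), B3gnt2 (17663 bp) and Vdac1, which codes for a mitochondrial outer membrane channel (15704 bp), kept 79.6% to 97.7% in the knockouts. The widest H3K27ac regions of Control were narrower, 5926 bp at Tns3, 5022 bp at Pigl, 4955 bp at Vps54 and 4518 bp at Mapt, and kept 81.5% to 100% in the knockouts.

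Of the regions found in the knockouts alone, the widest for H3K27ac lay 3346 bp from Dgke, a diacylglycerol kinase gene (chr11:89027628-89031833 in mm10). Its 4206 bp were covered to 46.9% and 37.4% in KO1 and 96.6% and 91.7% in KO2, with 0 in Control. The same stretch held one of the 3 widest knockout-only H3K4me3 regions, covered to 32.5% and 45.3% in KO1 and 81.3% and 64.7% in KO2. The other knockout-only regions of H3K27ac lay 24188 bp from Rab11fip4 and 14203 bp from Tha1, and those of H3K4me3 12316 bp from Sez6 and 59762 bp from Gm525. All of these lay outside protein-coding genes.

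The widest regions found in Control alone lay within genes. For H3K4me3 they were 1838 bp in Xpo1, the nuclear export receptor gene, 1478 bp in Pafah1b1 and 1320 bp in Taok1. For H3K27ac they were 599 bp in Tada2a, which codes for a subunit of acetyltransferase complexes, 296 bp in Wnt3a, a Wnt ligand gene, and 287 bp in Atad5. Peaks covered 80.4% and 82.8% of the Wnt3a region in the 2 Control libraries and 0 in all 4 knockout libraries.

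Promoter coverage is the percent of a window of 2 kb on each side of the gene start that peaks cover, and differences are in percentage points. RefSeq gave a start for 1271 of the 1609 genes. For 261 more the window was set inside the gene where H3K4me3 was highest, so such a window marks a place and may serve a neighbouring gene. A peak of H3K4me3 met the window of 69.9% to 71.8% of the 1271 starts in the 6 libraries. For H3K27ac it was 43.0% and 44.6% in Control, 50.5% and 51.0% in KO1, then 60.6% and 60.4% in KO2. The other autosomes moved alike, from 35.3% and 37.0% in Control to 42.4% and 41.7% in KO1 and 52.3% and 52.6% in KO2 for H3K27ac, with 62.9% to 64.5% for H3K4me3.

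Of the 1609 genes, 1117 passed the filter for H3K4me3, a mean coverage of at least 5%. In KO2, 9 were higher and 49 lower, against 1.34% and 6.05% of all 13513 genes tested. In KO1, 1 was higher and 5 lower, against 0.155% and 1.61%. In the mean of both lines 10 were higher and 37 lower, against 0.821% and 5.57%. For KO2 minus KO1, 2 were higher and 3 lower, against 0.496% and 0.192%. The median difference on chromosome 11 was -1.24 points in KO2 and -0.92 in KO1, and that of all genes -2.39 and -2.25. After quantile normalization the KO2 split turned to 36 higher and 20 lower, and the medians of all genes became 0.24 and 0.46. The shares of all genes called after it are not given here, so nothing is read from this split about the chromosome. The counts also rested on single libraries: without either Control library, or without KO2 r2, no chromosome 11 gene was called in KO2, and without KO2 r1 there were 35. In KO1, leaving out any 1 of the 6 libraries left no call.

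Genes that gained H3K4me3 included Pttg1, which codes for securin, the guardian of sister chromatid cohesion. Its window was covered to 8.72% and 14% in Control, 36.8% and 34.0% in KO1, then 44.1% and 31.3% in KO2. All knockout libraries lay above Control, with a difference of 25.2 ± 3.89 points in the mean of both lines (SE, limma adjusted p = 0.0172). Such separation was a condition for naming genes by their change here and below, so it adds no support. Tnip1, whose product restrains NF-kB signalling, held 37.8% and 15.7% in Control, 42.8% and 41.8% in KO1, then 62.1% and 63.7% in KO2 (25.9 ± 5.64 points, adjusted p = 0.0409). Without Control r2 the difference was 14.8 points (adjusted p = 0.153), and without the filter the adjusted p was 0.0531. Its Control libraries differed from each other by more than KO1 did from their mean, and KO1 alone did not pass (adjusted p = 0.263). Rad50, a gene of the complex that senses DNA breaks, held 18.3% and 19%, then 31.0% and 32.2%, then 33.8% and 31.5% (13.5 ± 2.38 points, adjusted p = 0.0238). Pttg1, Tnip1 and Rad50 each lost the call in the mean of both lines without either Control library. So did Fbxw10, Aoc3, Asb16, Fam222b, Brip1, Sp6 and Ube2o below.

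Fbxw10 rose by 16.9 ± 3.18 points and Aoc3, an amine oxidase gene, by 16.7 ± 3.67 in the mean of both lines (limma adjusted p = 0.0274 and 0.0414). Aoc3 lost its call at the stricter q, a −log10 q of at least 5 (adjusted p = 0.107), at equal list lengths (0.0885) and without the filter (0.0524). Asb16 had 0% in both Control libraries and 7.02% to 15.7% in the knockouts (12.5 ± 2.66 points, adjusted p = 0.0376), and lost its call at the stricter q (0.0857) and at equal list lengths (0.0532). Spns3 and Anxa6 were called in KO2. Spns3 held 7.25% and 4.10% in Control, 9.95% and 4.67% in KO1, then 35.1% and 32.2% in KO2. Anxa6, which codes for annexin A6, held 38.0% and 47.9%, then 23.4% and 33.2%, then 69.0% and 67.1%, so that KO1 lay below Control and KO2 above it. In KO2 they differed from Control by 28.0 ± 2.96 and 25.1 ± 4.88 points (adjusted p = 0.00712 and 0.027).

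Among the falls, Fam222b held 72.1% and 69.4% in Control, 41.2% and 39.2% in KO1, then 31.7% and 33.4% in KO2. The difference was -34.4 ± 3.02 points in the mean of both lines (limma adjusted p = 0.00653), separation from Control being a condition for naming the gene. Brip1, a helicase gene of the Fanconi anaemia pathway, held 71.7% and 72.9%, then 51.2% and 47.4%, then 54.8% and 46.4% (-22.4 ± 3.66 points, adjusted p = 0.0193). Sp6, a zinc finger factor gene, held 70.3% and 77.7%, then 51.8% and 57.0%, then 49.5% and 48.4% (-22.3 ± 3.62 points, adjusted p = 0.0193). These 3 fell to a like degree in both lines. Ube2o, a ubiquitin ligase gene, held 83.2% and 81.7%, then 45.8% and 59.7%, then 69.1% and 48.6% (-26.6 ± 6.22 points, adjusted p = 0.0484). After quantile normalization its adjusted p was 0.0836, and without the filter 0.0613.

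Other falls were larger in KO2, though KO1 also lay below both Control libraries at each gene with values here. Of these genes only Pip4k2b differed between KO2 and KO1 by limma's test of the 2 lines, given further on. Pip4k2b, a phosphoinositide kinase gene, held 90.5% and 87.8% in Control, 86.5% and 84.4% in KO1, then 46.6% and 48.9% in KO2, a fall in KO2 of -41.4 ± 3.28 points (limma adjusted p = 0.00476). Becn1, the gene of the autophagy protein Beclin 1, held 54.3% and 58.6%, then 42.5% and 48.3%, then 27.4% and 22.6% (-31.5 ± 3.88 points, adjusted p = 0.00827). Mettl2, a tRNA methyltransferase gene, held 89.4% and 79.7%, then 70.6% and 78.7%, then 53.9% and 50.3% (-32.4 ± 4.66 points, adjusted p = 0.0117). The cytokine genes Tnfsf13 and Tnfsf12 have windows centred 0.686 kb apart and are 1 observation. Tnfsf13 held 82.9% and 96.0%, then 70.6% and 71.4%, then 53.6% and 27.1% (-49.1 ± 8.27 points in KO2, adjusted p = 0.018). Its KO2 libraries differed from each other by more than KO1 did from Control.

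H3K27ac rose at nearly every chromosome 11 promoter tested in KO2, 743 of 819 higher and 0 lower (746 in either direction at an unadjusted p under 0.05), but so it did over the genome, where 88.2% were higher and 0.0741% lower. The median difference was 19.5 points on chromosome 11 and 17.9 over all genes. After quantile normalization, which removes such a common rise, 60 were higher and 33 lower. Nothing is read from these counts, since the shares of all genes in that setting are not given here. In KO1, 1 gene was higher and 0 lower, beside 0.0847% and 0% of all genes, and nothing is read from that. For KO2 minus KO1, 646 were higher, against 76% of all genes, and in the mean of both lines 592, against 66.4%. Both of these comparisons hold the same KO1 libraries. The median difference in KO1, a description, was 3.81 points on chromosome 11 and 3.02 over all genes.

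Sparc, which codes for a collagen-binding matrix glycoprotein, held 16.9% and 8.92% H3K27ac coverage in Control, 38.5% and 25.3% in KO1, then 88.2% and 92.9% in KO2. The 3 genotypes did not overlap, though KO2 lying outside the Control range was a condition for naming these genes. The KO2 difference at Sparc was 77.6 ± 5.52 points (SE, limma adjusted p = 1.03e-04). Tnip1, 457 kb away, held 0% in both Control libraries, 46.8% and 20.1% in KO1, then 70.4% and 69.2% in KO2 (69.8 ± 7.53 points, adjusted p = 2.03e-04). Tnip1 also gained H3K4me3, as given above. Lasp1, an actin-binding adaptor gene, held 4.10% and 6.72%, then 14.1% and 18.8%, then 76.4% and 71.0% (68.3 ± 3.97 points, adjusted p = 9.57e-05). The promoters of Sparc and Tnip1 are the CpG-poor pair among the sequences shown, and Lasp1 has the most CG of the 6. After quantile normalization these 3 were still higher in KO2, by 53.6, 46.3 and 43.8 points (adjusted p = 0.00335, 0.0106 and 0.00237).

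Rmnd5b, a gene of a ubiquitin ligase complex, held 18.8% and 16.9% in Control, 38.1% and 44.3% in KO1, then 89.1% and 75.1% in KO2, a KO2 difference of 64.3 ± 5.40 points (limma adjusted p = 1.19e-04). Kdm6b, which codes for a demethylase of H3K27me3, held 0% and 14.2%, then 17.6% and 20.7%, then 71.5% and 64.7% (61.0 ± 5.28 points, adjusted p = 1.19e-04). Its H3K4me3 coverage was 86.0% to 94.2% in all 6 libraries. Lrrc75a and Mmgt2 have windows centred 1.60 kb apart and rose by 67.0 ± 6.75 and 59.7 ± 5.14 points in KO2 (adjusted p = 1.76e-04 and 1.19e-04). Rdm1 held 29.2% and 24.8%, then 66.3% and 59.5%, then 74.2% and 69.3%, and stood out for KO1 values close to those of KO2.

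**Figure D5:**
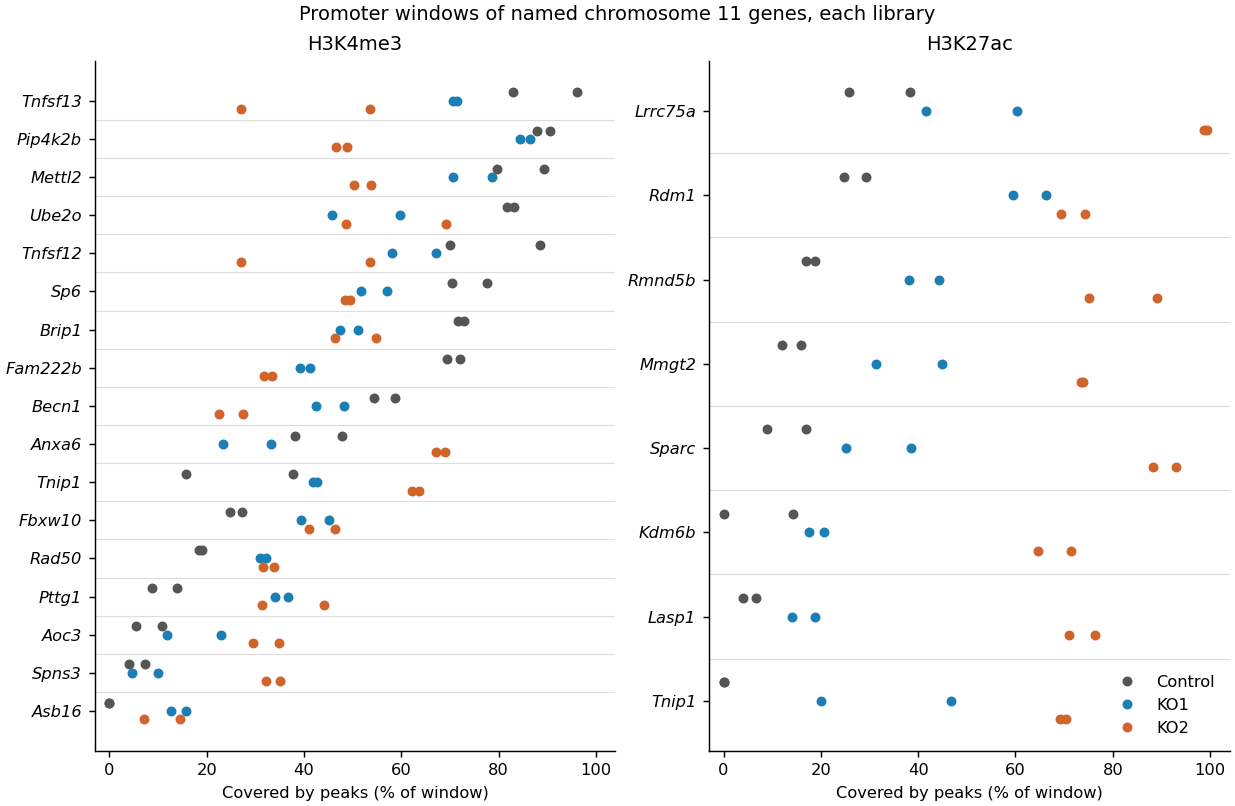
Percent of the promoter window covered by peaks (x axis) for the named chromosome 11 genes, H3K4me3 left and H3K27ac right, 1 point per library and genes ordered by their Control mean. For Sparc H3K27ac the Control points lie at 8.92% and 16.9% and the KO2 points at 88.2% and 92.9%. For Fam222b H3K4me3 all 4 knockout points lie below both Control points. Separation from Control was a condition for naming the genes.

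The 16 gene lists have 166 members on chromosome 11. For H3K4me3, 115 were tested, and in KO2 1 was higher and 6 lower, beside 1.34% and 6.05% of all genes. That is near the background, so nothing is read from the lists, and the genes called are given singly. Of 11 DNA repair genes tested, Rad50 was higher and Brip1 and Rad51c lower. Rad51c held 61.1% and 68.0% in Control, 51.0% and 48.3% in KO1, then 48.8% and 41.5% in KO2 (-19.4 ± 4.36 points, limma adjusted p = 0.0406). The other falls in KO2 were Grb2, the adaptor of receptor signalling (1 of 6 LIF and Stat signalling genes, -21.2 ± 4.33 points, adjusted p = 0.0306), Dvl2, a Wnt relay protein gene (1 of 9 Wnt genes, -25.0 ± 4.95, adjusted p = 0.0283), Rpl23a (1 of 8 ribosomal protein genes, -21.6 ± 4.17, adjusted p = 0.0264) and Psmc5 (1 of 7 proteasome genes, -12.8 ± 2.77, adjusted p = 0.0355). Smarce1, a SWI/SNF subunit gene, fell in the mean of both lines (1 of 3, -15.9 ± 3.64, adjusted p = 0.0465). After quantile normalization none of these lists kept a lower member in KO2, and 5 members of all lists were higher.

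In KO2 no member was called by limma for H3K4me3 among 8 Polycomb genes, 2 genes of the m6A machinery, 12 Hox, Dlx and other developmental factor genes, or 3 keratin genes, and none of these had an unadjusted p under 0.05. The same holds for calls among 15 cell division genes, 7 histone acetylation genes, 3 imprinted genes and 19 housekeeping genes, of which 3, 2, 1 and 5 had an unadjusted p under 0.05. Alkbh5, the gene of an m6A eraser, held 81.9% to 87.9% H3K4me3 in all 6 libraries, and Igf2bp1, the gene of an m6A reader, held 100% in all, which left no spread to test. Actg1, the gamma actin gene, held 89.6% to 91.5%. Of 21 keratin genes 3 passed the filter. In the list of 13 chemokine and cytokine genes 1 did, Irf1, which codes for a transcription factor, so no chemokine or cytokine gene itself was tested. Hba-a1, an alpha globin gene, had none in any library.

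For H3K27ac, 90 list members were tested and 81 were higher in KO2, a count to be read beside the 88.2% of all genes. The m6A machinery gave 3 of 3 (Mettl16, Alkbh5 and Igf2bp1, median 20.8 points) and the Polycomb genes 6 of 6 (median 26.4 points). The histone acetylation enzymes and acetyl readers gave 7 of 7 (median 22.2 points), the ribosomal protein genes 6 of 8 (21.9), the cell division genes 12 of 14 (21.9), the DNA repair genes 10 of 11 (21.2) and the housekeeping genes 16 of 17 (21.5). None of the 17 Hox, Dlx and other developmental factor genes passed the filter for H3K27ac. After quantile normalization 3 list members were higher and 6 lower in KO2, and nothing is read from these counts without the share of all genes.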

How the data were processed

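Per the labels' protocols, fixed chromatin of mouse embryonic stem cells was immunoprecipitated with a commercial kit and spike-in chromatin and antibody; whether the spike-in entered the values is unstated. The submitters' processing notes name mm10, MACS2 (no version given), Bowtie 1.2.2, Trimmomatic 0.38 and CASAVA; the control used in peak calling is not given in these sources. Each deposited list carries the authors' fold enrichment (a ratio), −log10 p, −log10 q and a score per peak, the score not being used. Every deposited peak had a −log10 q of at least 2.00. Fold and p were used within a list, to solve a Poisson tail for pileup and background, with a pileup scale fitted to each list. This was tested on data simulated with such a scale. The median fold of each list is also set side by side between genotypes, without a test.

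Shares, covered length in 1-Mb bins (mean of at least 2000 bp, pseudocount 1000 bp) and coverage of windows of 2 kb on each side of a start (mean of at least 5%) were fitted with limma 3.58.1 in R 4.3.3 over the 3 genotypes, with Benjamini-Hochberg adjustment over all features and a threshold of 0.05. Gene starts and sequences came from RefSeq (GRCm38.p6, the assembly of mm10). Windows of 77 chromosome 11 genes could not be placed. Genes were named where all libraries of the knockout in the contrast lay outside the Control range, up to 6 rises and 6 falls per contrast. Named bins were the 3 with the largest called change in each direction, and named regions the widest of each kind. The members and lists were chosen with earlier results of these data known. Alternatives were a stricter q, equal list lengths, other denominators, quantile normalization, other filters, the replicate block and leaving out each library.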

Additional observations from a re-analysis of the deposited data

Results flagged for a closer look

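The lines KO1 and KO2 differed from each other at the following results, each by limma's test of that difference with Benjamini-Hochberg adjustment. For H3K4me3 the log2 peak share of chromosome 11 was higher in KO2 than in KO1 by 0.0349 (adjusted p = 0.0175), and the log2 covered share differed by -0.0285 (adjusted p = 0.00845). These point in opposite directions and are small beside the differences from Control.

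At H3K4me3 promoters, coverage in KO2 minus KO1 was -37.7 points at Pip4k2b (adjusted p = 0.00948), 26.3 points at Spns3 (adjusted p = 0.016) and 39.7 points at Anxa6 (adjusted p = 0.0203). At H3K27ac promoters it was 58.7 points at Sparc (adjusted p = 3.13e-04), 57.2 at Lasp1 (1.92e-04), 48.9 at Kdm6b (3.88e-04) and 48.1 at Lrrc75a (8.74e-04). It was 40.9 points at Rmnd5b (adjusted p = 7.20e-04), 36.4 at Tnip1 (0.00377) and 35.6 at Mmgt2 (9.39e-04). These genes were named for their change from Control in contrasts that use the same KO2 libraries. A KO2 value far from Control was therefore built in, and these p-values are not independent support. Of all H3K27ac promoters tested, 76% were higher in KO2 than in KO1. The H3K27ac comparison also holds the KO1 libraries on which the chromosome was chosen.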

How the results depend on the processing

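The replicate numbers did not pair the libraries, since the replicate differences of the genotypes correlated at only -0.00696 to 0.0149 over genes. With the number as a replicate block, 50 H3K4me3 promoters were called in KO2 and 3 in KO1, and 746 H3K27ac promoters in KO2. The higher H3K4me3 shares in KO1 and KO2 kept direction and call under each alternative run; the exact permutation p for the mean of both lines was 0.0667 for the peak share (0.138) and the covered share (0.157). The peak share in KO2 minus KO1 was 0.00174 at the stricter q (adjusted p = 0.897), 0.0252 at equal list lengths (0.161) and -0.0157 with peaks within 1 kb merged (0.391). Its covered share was -0.0127 without chromosomes 4, 8 and 12 in the denominator (0.191). Leaving out 1 library gave 0.0252 to 0.0445 and -0.0388 to -0.0182 for these differences.

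For H3K27ac the log2 peak share without chromosomes 4, 8 and 12 was 0.105 in KO1 and 0.0833 in KO2, and the covered share 0.133 and 0.124. At equal list lengths the covered share was 0.196 and 0.158. The peak share in KO2 ran from 0.0889 to 0.116 with 1 library left out. The background difference at H3K4me3 peaks, 0.172 in KO1 and 0.0494 in KO2, became 0.237 and 0.0414 with medians, 0.182 and 0.0650 over shared regions, and 0.137 and 0.0231 without those chromosomes. At H3K27ac peaks 0.177 and 0.0606 became 0.185 and 0.0481, 0.201 and 0.0769, and 0.146 and 0.0374.

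Bins called numbered 18 and 37 for H3K4me3 in KO1 and KO2 and 77 for H3K27ac in KO1 without centring. With 2-Mb bins they were 45 and 45 for H3K4me3 and 29 and 47 for H3K27ac, there being fewer bins. H3K4me3 promoters called in KO1 were 2 at the stricter q, 3 at equal list lengths and 2 without the filter; for H3K27ac in KO1 each of these gave 0. After quantile normalization 93 H3K27ac promoters were called in KO2. Leaving out 1 library gave 0 to 35 H3K4me3 promoters in KO2, and 0 to 0 in KO1 for each mark.

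When a region had to be covered over 50% to count as present, 24.6% of Control H3K4me3 regions were absent in KO1 and 26.9% in KO2, and 13.7% and 19.8% of KO1 and KO2 regions in Control. For H3K27ac these were 6.12%, 2.44%, 34.1% and 71.3%. At equal list lengths the H3K4me3 values were 7.30%, 10.3%, 9.14% and 13.8%, and the H3K27ac values 5.14%, 5.03%, 12.8% and 22.9%. At the stricter q, H3K4me3 gave 10.5% in KO1, 12.3% in KO2 and 12% of KO2 regions absent in Control, and H3K27ac 44.5% of KO2 regions. The cause of these movements was not tested.

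For the named genes, 163 of the values under other settings kept their call and 17 lost it; with 1 library left out, 100 kept it and 116 lost it. All lost calls were of H3K4me3. With 2 libraries a group and no read depth, small promoter differences are not detectable.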
